A study of Mus musculus with 7 samples.

Results

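The genes described here are 9 components of the interferon gamma pathway, chosen by name as its ligand, receptor chains, kinases, first transcription factors and brakes. They are Ifng, Ifngr1, Ifngr2, Jak1, Jak2, Irf1, Irf2, Socs1 and Ptpn2, 9 of the 28786 genes in the deposited count table, and all 9 passed the filter on low counts that left 14226 genes for testing. Transcripts were counted in haematopoietic stem cells (HSCs), which give rise to every blood lineage, sorted from the bone marrow of mice with MC38 colon cancer (4 libraries) and of normal C57BL/6J control mice (3 deposited columns, of which 2 were used). MC38 is a transplantable colon carcinoma line of C57BL/6 origin. Mice were 6 to 8 weeks old, each library came from 1500 sorted cells, and no genetic change or drug is named for either group. The sources used here give neither the tumour's site, size and duration, nor the sex of the mice, nor the markers of the sort. The labels do not state whether each library is a different animal, and p-values therefore cover only the variation among libraries, which may be technical.

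Interferon gamma is a cytokine made mainly by T and NK cells. It binds a receptor made of Ifngr1, the ligand-binding chain, and Ifngr2, the accessory chain. The kinase Jak1 sits on Ifngr1 and Jak2 on Ifngr2, and when activated they switch on STAT transcription factors, which induce Irf1 and other target genes. Socs1, itself an interferon-induced gene, blocks the kinases, the phosphatase Ptpn2 removes phosphate from kinases and STATs, and Irf2 binds the same DNA elements as Irf1 and often opposes it. In bone marrow, interferon gamma is known to act on HSCs and on their output of myeloid cells, and the title of the series places this cytokine in the myeloid bias of HSCs in tumour-bearing mice.

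The MC38 libraries held 13368238 to 17657037 counts and the control libraries 12131546 and 12306066. The deposited column for control replicate 3 held 8625380, but its values lay closer to the sum of the other controls than counting error allows. Their spread around that sum was 0.312 of the counting error, against 3.42 to 9.01 in 12 triples of MC38 libraries, so this column was left out of the values below unless named. All 15 stem and progenitor markers examined, Kit, Procr and Hlf among them, were detected. None of the 15 was called by edgeR (2 at an unadjusted p under 0.05), while DESeq2 called Ly6a higher and Gata2 lower in MC38. EdgeR called Ly6a with both other filters on low counts, and Ly6a and Gata2 with a replicate block. Transcripts of mature cells were present as well. The 12 neutrophil markers summed to 54070 to 61650 CPM in MC38 libraries and 28080 to 28370 CPM in control libraries, and 9 of the 12 rose (edgeR, adjusted p under 0.05). That number was 4 without control replicate 1 and 6 without control replicate 2. Of the other marker lists, 2 of 11 B cell, 2 of 13 macrophage and dendritic cell, 1 of 8 monocyte and 1 of 6 basophil and mast cell genes rose, 2 of those 6 fell, and 0 of 11 erythroid and megakaryocyte genes were called by edgeR (3 at an unadjusted p under 0.05, DESeq2 1). Of 16 immediate early genes, which respond to cell handling, 5 fell, and their sum was 24730 to 25730 CPM in MC38 and 30770 to 31200 CPM in control libraries. Over all tested genes edgeR called 1.04% as higher and 0.569% as lower. The list counts moved with single libraries. Fallen immediate early genes numbered 1 without the first control, 2 without the second and 3 without MC38 replicate 2, and fallen basophil and mast cell genes 0 without either control, 1 without MC38 replicate 4 and 3 without MC38 replicate 1. Risen monocyte genes numbered 0 without either control, MC38 replicate 2 or 4, risen B cell genes 1 without the second control, MC38 replicate 2 or 4, and risen macrophage and dendritic cell genes 1 without the first control, MC38 replicate 2 or 4. In bulk samples, fewer cells of a type and less RNA per cell cannot be told apart, and a transcript cannot be placed in a cell.

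Levels are given as CPM, read counts scaled by library size and TMM factor, and fold changes as the log2 of MC38 over control. A gene was called when its adjusted p in edgeR's quasi-likelihood test was under 0.05, with Benjamini-Hochberg adjustment over all 14226 genes. Among the 9 genes Ifngr1 was called and was higher in MC38, and the other 8 did not pass. Over all tested genes 1.61% were called, 1.04% as higher and 0.569% as lower. An unadjusted p under 0.05 was found for 2488 of the 14226, the background for the list counts at that level. DESeq2 called 1028 of 15209 genes, 634 as higher and 394 as lower, the background for its list counts. The log2 fold change was above 0 for 8 of the 9 genes, against 50.9% of all tested genes, and the median over the 9 was 0.32, against 0.01 over all genes. For Ifngr1, Jak1, Irf2 and Socs1 every MC38 library lay above both controls, which held for 14.0% of all tested genes, and no member lay wholly below the controls, which held for 15.0%.

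**Figure D1:**
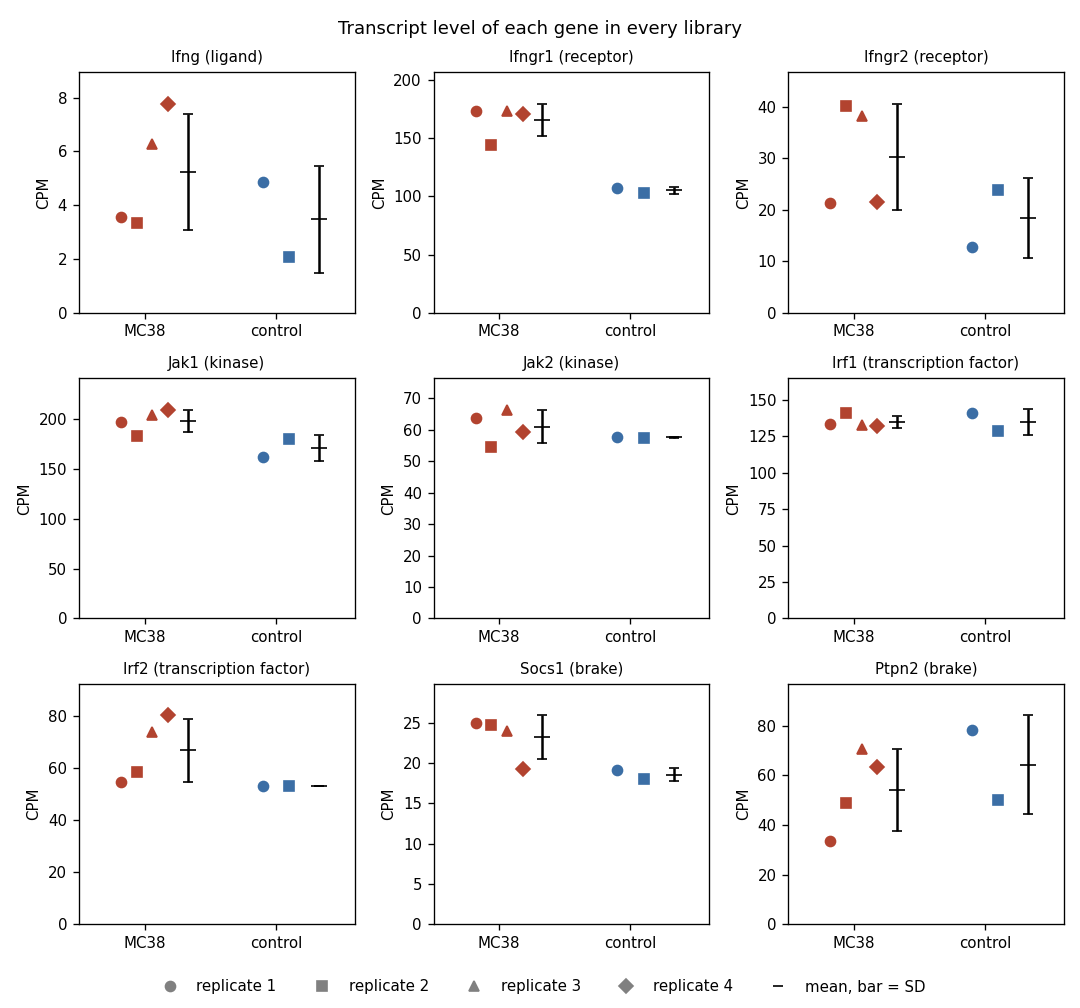
CPM of the 9 genes in each of the 4 MC38 and 2 control libraries, with symbols for the replicate number and a bar for the mean ± SD of each group. Ifngr1 sits between 144.5 and 173.6 CPM in MC38 libraries, above both controls, while Irf1 is level and Ifngr2, Ptpn2 and Ifng differ widely within a group.

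The ligand gene Ifng (ENSMUSG00000055170, chromosome 10, 118441046 to 118445892 in mm10) was detected at a low level in every library. It had 53, 49, 113 and 105 counts in MC38 replicates 1 to 4 and 58 and 25 counts in control replicates 1 and 2. After scaling these were 3.56, 3.35, 6.29 and 7.77 CPM in MC38 libraries, against 4.87 and 2.06 CPM in controls. The groups overlapped, since the first control lay above MC38 replicates 1 and 2. Ifng averaged 5.24 ± 2.15 CPM in MC38 and 3.47 ± 1.99 CPM in control libraries (SD, n = 4 and 2), and the log2 fold change of 0.60 had a 95% interval from -0.73 to 1.92 (edgeR adjusted p = 0.662). The spread within MC38, 41.0% of the mean, exceeded that of most genes, as 4.62% of the 9383 genes above 10 CPM had a larger one. Without control replicate 1 the log2 fold change was 1.34 and without control replicate 2 it was 0.11, neither past the threshold. Gm49751, an unclassified transcript on the same strand, shares 336 exon bases with Ifng and has no row in the deposited count table. Reads over the shared bases cannot be assigned with certainty. The stretch of the promoter window that holds the TATA box is shown because Ifng alone held such a box among the 8 members whose windows were searched, with the match in capitals.
Ifng promoter, chr10:118441001-118441036, plus strand: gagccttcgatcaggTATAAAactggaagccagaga

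Markers of T and NK cells, the main known sources of interferon gamma, were present too, most of them at low levels. The 20 markers summed to 592 to 655 CPM in MC38 and 527 to 613 CPM in control libraries, ranges that overlap. Nkg7, a granule protein of cytotoxic cells, made up most of the sum at 365 CPM in MC38 and 420 CPM in control libraries. Without Nkg7 the ranges were apart, with the other 19 markers at 232 to 283 CPM in MC38 and 140 to 160 CPM in control libraries. Ccl5, a chemokine of these cells and the next most abundant marker, averaged 107 CPM in MC38 and 63.9 CPM in control libraries (edgeR adjusted p = 0.0686). Of the CD3 chains of the T cell receptor complex, chosen after their values were seen, Cd3g averaged 11.4 CPM in MC38 and 4.48 CPM in control libraries (edgeR adjusted p = 0.127). Cd3d averaged 13.9 CPM in MC38 and 7.74 CPM in control libraries (edgeR adjusted p = 0.233), and Cd3e 2.86 CPM in MC38 and 2.504 CPM in control libraries (edgeR adjusted p = 0.923). None of the 20 was at 0 in all libraries, 15 had a log2 fold change above 0, and the median was 0.79. For 11 of the 20 markers every MC38 library lay above both controls and for 1 marker below both, against 14.0% and 15.0% of all tested genes. EdgeR called 0 of the 20, with 9 at an unadjusted p under 0.05, against 2488 of 14226 over all genes. It called 3 as higher without a filter on low counts, against 302 of 21477 over all genes. It called 2 as higher with the stricter filter, with the replicate block, and without MC38 replicate 1 or 3. With other scaling and without MC38 replicate 2 or 4 it called 0. Klrb1c, named after its values were seen, averaged 20.6 CPM in MC38 and 6.47 CPM in control libraries (edgeR adjusted p = 0.054). DESeq2 called 7 as higher, against 634 of 15209 over all genes, and limma-voom called 0. The part of such cells in the Ifng counts was not tested.

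Of 8 genes tied to the induction of Ifng, 1 rose, where 1.04% of all tested genes were called as higher. Il18rap, the accessory chain of the receptor for interleukin 18, had 46.3, 35.8, 42.9 and 42.0 CPM in MC38 replicates 1 to 4 and 18.8 and 16.0 CPM in controls. Every MC38 library lay well above both controls, by 1.26 on the log2 scale with an SE of 0.21 (edgeR adjusted p = 0.017). The adjusted p missed the threshold when a library was left out, namely the first control (0.113), the second control (0.113) or MC38 replicate 4 (0.0708). Tbx21, the T and NK cell transcription factor that drives Ifng, is named after its values were seen. It had 1.48, 4.99, 7.01 and 2.44 CPM in MC38 replicates 1 to 4, against 0 and 0.165 CPM in controls. All MC38 libraries exceeded the controls, but Tbx21 was not called by edgeR (adjusted p = 0.0688), while DESeq2 called it. Il27ra, a receptor chain for interleukin 27, was at 34.1 CPM in MC38 and 33.3 CPM in control libraries (edgeR adjusted p = 0.946). Stat4, the transducer of interleukin 12 signals, was at 44.1 CPM in MC38 and 42.6 CPM in control libraries (edgeR adjusted p = 0.91). The rest of the list is named after its values were seen. Il18r1 averaged 3.99 CPM in MC38 and 4.05 CPM in control libraries (log2 fold change -0.02, edgeR adjusted p = 0.992). Eomes (-0.18, edgeR adjusted p = 0.961), Il12rb1 (0.30, 0.76) and Il12rb2 (0.51, 0.881) did not pass either. The log2 fold change was below 0 for 2 of the 8.

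The ligand-binding chain Ifngr1 (ENSMUSG00000020009, chromosome 10, 19591949 to 19610229), was higher in MC38. It had 2579, 2113, 3119 and 2305 counts in MC38 replicates 1 to 4 and 1276 and 1247 counts in controls, or 173.4, 144.5, 173.6 and 170.5 CPM in MC38, against 107.2 and 102.9 CPM. The lowest MC38 library, replicate 2, still exceeded the higher control. Ifngr1 averaged 165.5 ± 14.1 CPM in MC38 and 105.1 ± 3.02 CPM in control libraries (SD, n = 4 and 2), a 1.57-fold difference. The log2 fold change was 0.66 with an SE of 0.13 and a 95% interval from 0.37 to 0.94 (edgeR adjusted p = 0.0405). The direction was the same in each of 16 alternatives, between 0.59 and 0.72, but 6 of them ended the call. These were limma-voom (adjusted p = 0.0571), leaving out immunoglobulin and T cell receptor segments (edgeR adjusted p = 0.0513), and fits without the first control (0.22), without the second (0.157), and without MC38 replicate 2 (0.0696) or 4 (0.142). DESeq2 gave an adjusted p of 0.00041, the lowest of the 16. Ifngr1 is also expressed by mature myeloid cells, and the neutrophil sum given above was higher in the same libraries. Macrophage and dendritic cell markers summed to 262 to 297 CPM in MC38 and 188 to 209 CPM in control libraries, and monocyte markers to 3100 to 3272 CPM in MC38 and 2253 to 2300 CPM in control libraries. The monocyte sum was mostly Lyz2, a lysozyme also made by neutrophils, at 2514 CPM in MC38 and 1721 CPM in control libraries. Of the 8 monocyte markers 4 had a log2 fold change below 0, and the median of the list was 0.0015. F13a1, a coagulation factor subunit chosen after its values were seen, averaged 4.85 CPM in MC38 and 13.3 CPM in control libraries, with every MC38 library below both controls (edgeR adjusted p = 0.196). The part of such cells in the Ifngr1 level was not tested.

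Ifngr2, the accessory chain (ENSMUSG00000022965, chromosome 16, 91547072 to 91565623), varied more within each group than Ifngr1. It had 21.3, 40.2, 38.2 and 21.5 CPM in MC38 replicates 1 to 4 and 12.9 and 23.9 CPM in controls. The second control lay above MC38 replicates 1 and 4, and the ratio of the highest to the lowest library was 1.89 within MC38 and 1.86 within control. The means were 30.3 ± 10.3 CPM in MC38 and 18.4 ± 7.78 CPM in control libraries (SD, n = 4 and 2). The log2 fold change of 0.72 was as large as that of Ifngr1, but its 95% interval ran from -0.10 to 1.55 and it did not pass (edgeR adjusted p = 0.348). It was 0.35 without control replicate 1 and 1.24 without control replicate 2, both short of the threshold.

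The promoter windows of the receptor chains, 250 bases before to 50 after the RefSeq start in GRCm38, held GC boxes (GGGCGG on either strand), which 35.7% of 32851 mouse promoter windows hold. Ifngr1 had 2 and Ifngr2 had 4. Neither window held a TATA box (TATAAA, in 13.6% of windows), a gamma-activated site (GAS, TTCNNNGAA, the element bound by activated STATs, in 8.3%) or an interferon-stimulated response element (ISRE, the element bound by IRFs, searched as GAAA, any pair of bases and GAAA, in 3.44%), each searched on both strands. The GC content was 60.3% for Ifngr1 and 74.3% for Ifngr2, against a median of 52.7% over all windows. GC boxes were not particular to the receptor chains, since the windows of Jak1 (1), Jak2 (3), Irf1 (2 in each window), Irf2 (3) and Socs1 (2) held them too. The windows of Jak1 and Jak2 likewise held none of the other motifs searched. The stretches of the receptor windows that hold the boxes are shown, with the boxes in capitals.
Ifngr1 promoter, chr10:19591835-19591881, plus strand: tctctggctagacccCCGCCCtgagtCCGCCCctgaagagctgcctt
Ifngr2 promoter, chr16:91546987-91547054, plus strand: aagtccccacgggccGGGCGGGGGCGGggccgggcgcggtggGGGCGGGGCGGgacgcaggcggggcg

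Per kilobase of exon, so that chains can be compared, Ifngr1 was far more abundant than its partner in every library. The ratio of Ifngr1 to Ifngr2 was 10.8, 4.76, 6.01 and 10.5 in MC38 replicates 1 to 4 and 11.0 and 5.71 in controls. Both groups held libraries near 11 and libraries near 5, so the ratio did not separate them. The mean log2 ratio was 2.91 ± 0.59 in MC38 and 2.99 ± 0.67 in control libraries (SD, n = 4 and 2), a difference of -0.075 (exact two-sided permutation test over 15 splits, p = 0.8, where the smallest possible is 0.0667). The sign of this difference turned when control replicate 1, MC38 replicate 2 or MC38 replicate 3 was left out.

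**Figure D2:**
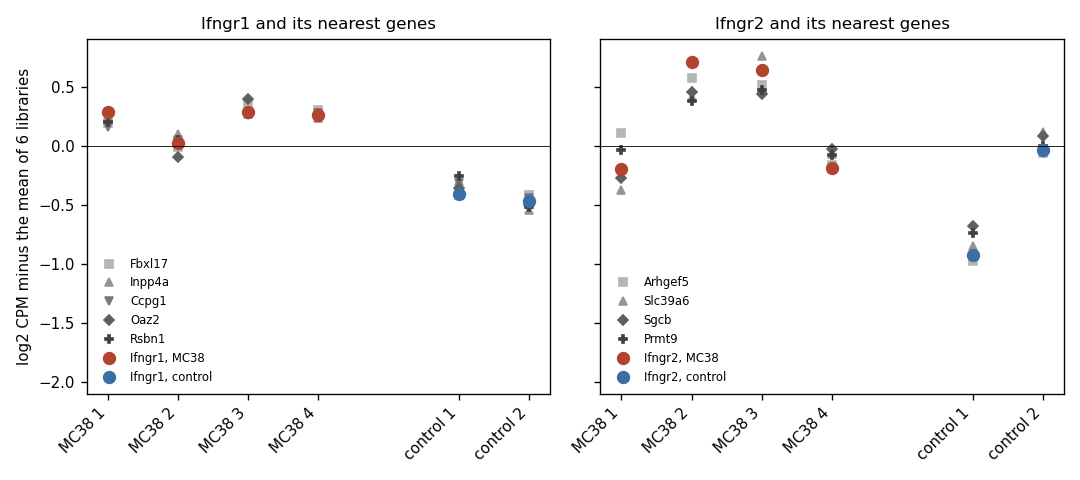
Log2 CPM centred on the mean of the 6 libraries for Ifngr1 and Ifngr2 (coloured) and for genes with the most like pattern (grey symbols, 5 for Ifngr1 and 4 for Ifngr2), in each MC38 and control library. Ifngr1 and its neighbours are low in both controls and lowest among MC38 libraries in replicate 2, while Ifngr2 and its neighbours are high in MC38 replicates 2 and 3 and lowest in control replicate 1.

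The patterns of the receptor chains over the libraries were compared with each other and with those of other genes. Likeness was measured as the root mean square difference of centred log2 CPM over the 6 libraries, among 10310 other genes with a symbol and at least 5 CPM. The distance between Ifngr1 and Ifngr2 was 0.50, above the median of 0.43 between Ifngr1 and all other genes but below the median of 0.62 between Ifngr2 and all other genes. The nearest genes to Ifngr1 were Fbxl17, an F-box protein gene (0.055), Inpp4a, a phosphoinositide phosphatase (0.067), Ccpg1, a receptor for autophagy of the endoplasmic reticulum (0.068), Oaz2, an ornithine decarboxylase antizyme (0.070), and Rsbn1 (0.075). Among the pathway members Jak1 came nearest to Ifngr1, at 0.22. The nearest genes to Ifngr2 were farther off, from Arhgef5, a guanine nucleotide exchange factor (0.15), over Slc39a6, a zinc transporter (0.17), and Sgcb, a sarcoglycan (0.19), to Prmt9, an arginine methyltransferase (0.19). None of these 9 genes was called by edgeR. Inpp4a came closest, at 130.0, 117.5, 132.5 and 129.1 CPM in MC38 replicates 1 to 4 and 89.2 and 75.1 CPM in controls (edgeR adjusted p = 0.0524).

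Ifngr2 lies in a cluster of interferon receptor genes on chromosome 16 with Ifnar2, Il10rb and Ifnar1, all on the plus strand between 91372783 and 91565623. All 4 had a log2 fold change above 0 and none was called by edgeR. Ifnar1 and Ifnar2 encode the chains of the type I interferon receptor. Ifnar1 averaged 60.8 CPM in MC38 and 46.9 CPM in control libraries (log2 fold change 0.37, edgeR adjusted p = 0.415). Ifnar2 averaged 97.3 CPM in MC38 and 84.9 CPM in control libraries (0.20, edgeR adjusted p = 0.639). Il10rb, a chain shared by the receptors for interleukin 10 and type III interferon and named after its values were seen, averaged 64.9 CPM in MC38 and 34.5 CPM in control libraries (0.91, edgeR adjusted p = 0.0667). Il10rb passed with DESeq2, with both other filters on low counts and with the replicate block. It also passed with all 7 columns, a fit that counts the control column set aside above as a replicate.

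The receptor-bound kinases varied less within groups than Ifngr2 or Ifng. Jak1 (ENSMUSG00000028530, chromosome 4, 101152367 to 101265282) had 197.2, 183.3, 204.0 and 209.7 CPM in MC38 replicates 1 to 4 and 162.3 and 180.5 CPM in controls. Every MC38 library was above both controls, replicate 2 by little. The means were 198.6 ± 11.4 CPM in MC38 and 171.4 ± 12.9 CPM in control libraries (SD, n = 4 and 2), and the log2 fold change of 0.21 did not pass (95% interval -0.05 to 0.48, edgeR adjusted p = 0.388). Jak2 (ENSMUSG00000024789, chromosome 19, 29251828 to 29313080) had 63.7, 54.6, 66.5 and 59.2 CPM in MC38 replicates 1 to 4 and 57.8 and 57.5 CPM in controls. The MC38 libraries lay on both sides of the controls. Jak2 averaged 61.0 ± 5.20 CPM in MC38 and 57.6 ± 0.25 CPM in control libraries (SD, n = 4 and 2), with a log2 fold change of 0.08 (95% interval -0.26 to 0.43, edgeR adjusted p = 0.839). The upper ends of these intervals are 1.39-fold for Jak1 and 1.34-fold for Jak2.

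Within each library Jak1 exceeded Jak2 per kilobase. The ratio was 2.16, 2.33, 2.13 and 2.47 in MC38 replicates 1 to 4 and 1.95 and 2.19 in controls. The second control fell inside the MC38 range. The mean log2 ratio differed by 0.13 between MC38 and control (exact two-sided permutation test over 15 splits, p = 0.267). The other members of the kinase family did not pass either (edgeR). Jak3, the kinase of the common cytokine receptor chain, averaged 73.8 CPM in MC38 and 85.3 CPM in control libraries (log2 fold change -0.21, edgeR adjusted p = 0.543). Tyk2, a kinase of type I interferon and interleukin 12 receptors, averaged 29.4 CPM in MC38 and 23.3 CPM in control libraries (0.34, edgeR adjusted p = 0.563).

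**Figure D3:**
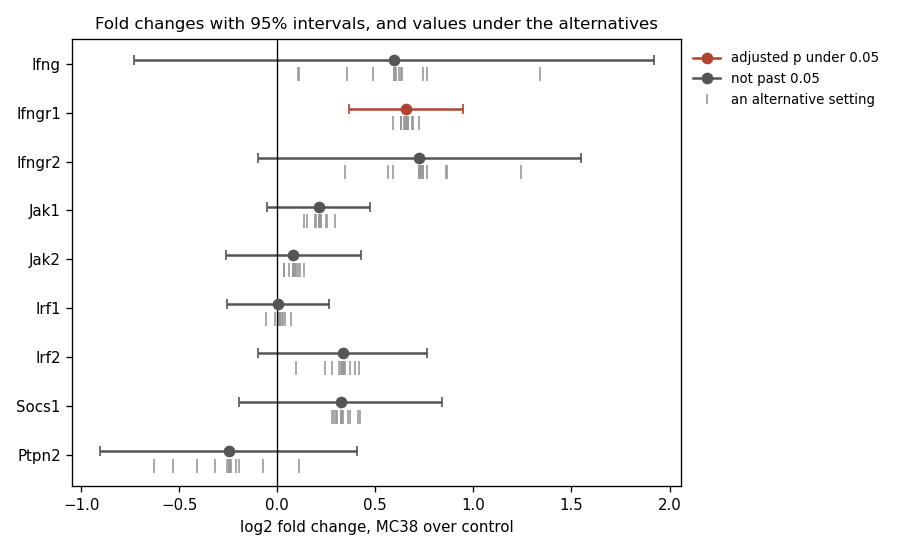
Log2 fold change of MC38 over control for each of the 9 genes with its 95% interval from edgeR (points and bars), and below it the values under the alternatives (ticks). Ifngr1, in red, is the single gene whose interval lies above 0, and Irf1 is centred on 0.

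Irf1, the transcription factor induced first by interferon gamma (ENSMUSG00000018899, chromosome 11, 53770014 to 53778374), was level between the groups. It had 133.8, 141.3, 133.0 and 131.9 CPM in MC38 replicates 1 to 4 and 140.9 and 128.5 CPM in controls. The MC38 libraries lay between the controls apart from replicate 2, which was above both. The means were 135.0 ± 4.25 CPM in MC38 and 134.7 ± 8.75 CPM in control libraries (SD, n = 4 and 2), which is 0.0031 on the log2 scale with an SE of 0.12 (edgeR adjusted p = 0.994). The 95% interval, -0.26 to 0.26, corresponds to 0.838 to 1.199 times the control level. Within MC38 the spread of Irf1 was 3.15% of its mean, and 98.5% of the 9383 genes above 10 CPM had a larger one. Gm17334, a gene on the opposite strand, shares 135 exon bases with Irf1, and without a stated strand setting reads over them cannot be assigned with certainty.

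Irf2 (ENSMUSG00000031627, chromosome 8, 46739732 to 46847458), the relative of Irf1 that often opposes it, did not pass. It had 54.7, 58.5, 73.7 and 80.2 CPM in MC38 replicates 1 to 4 and 52.9 and 53.1 CPM in controls. Every MC38 library was above both controls, replicate 1 by less than 2 CPM. Irf2 averaged 66.8 ± 12.2 CPM in MC38 and 53.0 ± 0.10 CPM in control libraries (SD, n = 4 and 2), with a log2 fold change of 0.33 (95% interval -0.10 to 0.76, edgeR adjusted p = 0.409). The ratio of Irf1 to Irf2 per kilobase was 4.55, 4.49, 3.35 and 3.06 in MC38 replicates 1 to 4 and 4.95 and 4.504 in controls. MC38 replicate 1 lay above the second control, and the mean log2 ratio differed by -0.31 (exact two-sided permutation test over 15 splits, p = 0.2). The difference was -0.063 within the same-numbered pairs.

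The promoter windows of both factors held a GAS, as did that of Ifng, and that of Irf2 also an ISRE. Irf1 has 2 windows in RefSeq, from different starts, and the upstream window holds the GAS 90 to 82 bases before the start. In Irf2 the ISRE and the GAS lie within 30 bases of each other at the far end of the window. The stretches are shown because they hold the elements through which interferon signals are known to act, with matches in capitals.
Irf1 promoter, GAS, chr11:53769909-53769947, plus strand: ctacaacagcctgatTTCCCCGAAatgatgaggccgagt
Irf2 promoter, ISRE then GAS, chr8:46739495-46739544, plus strand: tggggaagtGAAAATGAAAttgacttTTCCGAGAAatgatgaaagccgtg

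Of 7 other interferon regulatory factors none was called by edgeR (2 at an unadjusted p under 0.05), and DESeq2 called Irf4 and Irf8 higher in MC38. Irf8, a factor of monocyte and dendritic cell development, had 124.1, 100.5, 102.3 and 102.5 CPM in MC38 replicates 1 to 4 and 81.0 and 73.5 CPM in controls. Every MC38 library lay above both controls, with a log2 fold change of 0.48 (edgeR adjusted p = 0.138). Irf3, a factor activated by nucleic acid sensors, averaged 84.2 CPM in MC38 and 85.7 CPM in control libraries (edgeR adjusted p = 0.958).

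Socs1, the interferon-induced inhibitor of the kinases (ENSMUSG00000038037, chromosome 16, 10782240 to 10785536), had 25.0, 24.7, 24.0 and 19.2 CPM in MC38 replicates 1 to 4 and 19.2 and 17.99 CPM in controls. MC38 replicates 1 to 3 stood together above the controls, and MC38 replicate 4 exceeded the first control by less than 0.1 CPM. Socs1 averaged 23.2 ± 2.70 CPM in MC38 and 18.6 ± 0.82 CPM in control libraries (SD, n = 4 and 2), and the log2 fold change of 0.32 did not pass (95% interval -0.19 to 0.84, edgeR adjusted p = 0.518). Its promoter window holds 2 ISRE matches that share 4 bases, a pair found 83 to 68 bases before the start and shown for comparison with Irf2, read on the gene's strand.
Socs1 promoter, ISRE pair, chr16:10785589-10785634, minus strand: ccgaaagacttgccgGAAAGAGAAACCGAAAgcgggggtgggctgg

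Ptpn2, the phosphatase that acts on the kinases and STATs (ENSMUSG00000024539, chromosome 18, 67665511 to 67724595), varied widely, with a spread within MC38 of 30.4% of the mean, after Ifng and Ifngr2 (34.0%) the next among the 9. It had 33.5, 49.0, 70.7 and 63.2 CPM in MC38 replicates 1 to 4 and 78.3 and 50.1 CPM in controls. The highest MC38 library was 2.11 times the lowest, and the second control lay inside the MC38 range. Ptpn2 averaged 54.1 ± 16.4 CPM in MC38 and 64.2 ± 19.9 CPM in control libraries (SD, n = 4 and 2), with a log2 fold change of -0.25 (95% interval -0.90 to 0.41, edgeR adjusted p = 0.72). Without control replicate 1 the value turned to 0.11. Ptpn2 was the single member with a negative log2 fold change.

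Other brakes on this pathway were examined as a list of 15, of which none was called by edgeR (3 at an unadjusted p under 0.05), none by limma-voom, and Cish and Ptpn6 as higher by DESeq2. The median log2 fold change was 0.00. Ptpn6, the phosphatase SHP-1 of blood cells, averaged 252.9 CPM in MC38 and 193.3 CPM in control libraries (log2 fold change 0.39, edgeR adjusted p = 0.146). Socs3, an inhibitor induced by interleukin 6 and granulocyte colony-stimulating factor, averaged 274.6 CPM in MC38 and 305.6 CPM in control libraries (-0.15, edgeR adjusted p = 0.555). Cish, an inhibitor induced by STAT5 and named after its values were seen, averaged 78.5 CPM in MC38 and 48.2 CPM in control libraries, with every MC38 library above both controls (0.70, edgeR adjusted p = 0.0516). In edgeR, Cish passed with library totals only, with both other filters on low counts and, together with Ptpn6, with the replicate block.

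**Figure D4:**
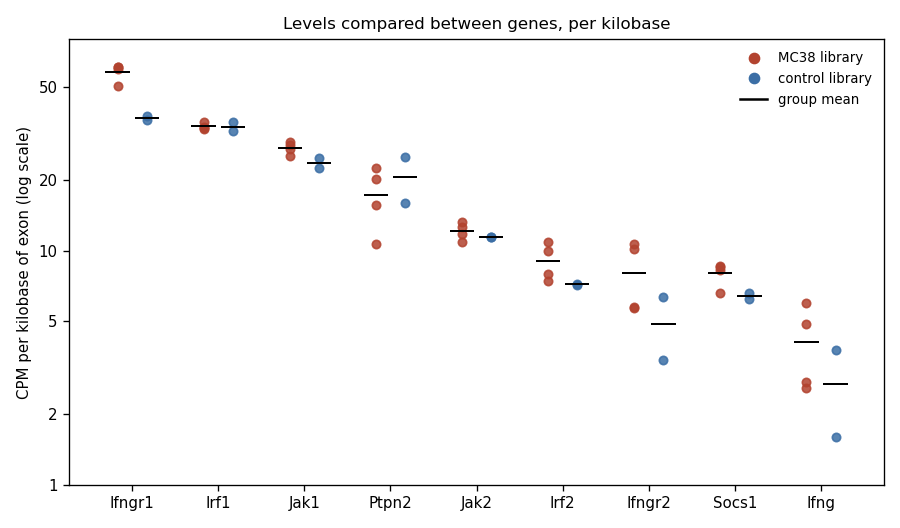
CPM per kilobase of exon on a log scale for each gene in each MC38 and control library, ordered by the MC38 mean, with lines for group means. Ifngr1 leads in both groups and Ifng is lowest, and the receptor partner Ifngr2 sits with Irf2 and Socs1 near the bottom.

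Compared per kilobase of exon, the levels formed a similar order in both groups. In MC38 libraries Ifngr1 led at 58.1 ± 4.94 CPM per kilobase, before Irf1 at 34.0 ± 1.07, Jak1 at 27.5 ± 1.57, Ptpn2 at 17.3 ± 5.25 and Jak2 at 12.1 ± 1.03 (SD, n = 4). Irf2 at 9.03 ± 1.64, Ifngr2 at 8.05 ± 2.74, Socs1 at 7.99 ± 0.93 and Ifng at 4.05 ± 1.66 CPM per kilobase followed. In control libraries Ifngr1 averaged 36.9 ± 1.07 and Irf1 33.9 ± 2.21 CPM per kilobase (SD, n = 2), and their ranges came within 1 CPM per kilobase of each other. Neighbours whose ranges overlapped in MC38 were Ptpn2 with Jak2, Irf2 with Ifngr2, and Ifngr2 with Socs1. In control they were Jak1 with Ptpn2, Socs1 with Ifngr2, and Ifngr2 with Ifng. The lengths are those of all annotated exons of a gene, from 1.29 kilobases for Ifng to 7.4 for Irf2, so a gene whose HSC transcript omits exons is placed too low.

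**Figure D5:**
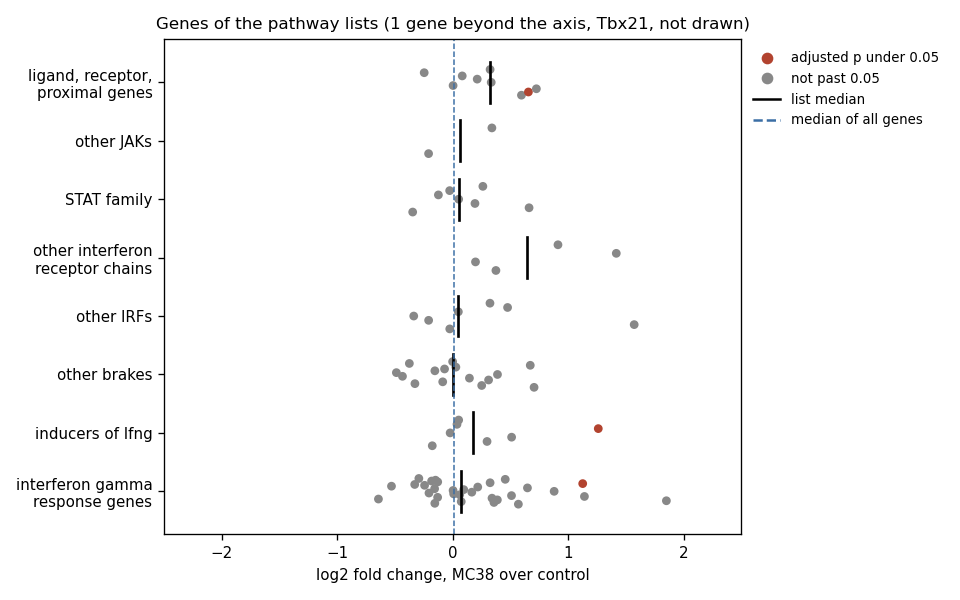
Log2 fold change of MC38 over control for single genes of the pathway lists (points; red for an adjusted p under 0.05), with the list median as a black line and the median of all genes dashed; Tbx21 lies beyond the axis. Ifngr1, Il18rap and Serpina3g are the red points, and the other interferon receptor chains have the highest list median, 0.64.

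The other components of the pathway and the genes it induces were set beside the 9. The fixed lists of other JAKs, STATs, interferon receptor chains, IRFs and brakes held 35 genes, all tested. EdgeR called 0 of them (8 at an unadjusted p under 0.05), limma-voom called 0 and DESeq2 called 5, all higher. Among other edgeR settings, library totals only called Cish, and both other filters on low counts called Cish and Il10rb. The replicate block called these and Ptpn6, and 0 were called when any single MC38 library was left out. The median log2 fold change of the 35 was 0.05. Among the 7 STAT genes, whose median was also 0.05, Stat3, the transducer of interleukin 6 signals, averaged 172.7 CPM in MC38 and 151.2 CPM in control libraries (0.19, edgeR adjusted p = 0.458). Stat6, the transducer of interleukin 4 signals, averaged 97.8 CPM in MC38 and 81.6 CPM in control libraries (0.26, edgeR adjusted p = 0.555).

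Of 31 tested interferon gamma response genes, a list that includes Irf1 and Socs1, 1 rose and 30 did not pass. Over all tested genes edgeR called 1.04% as higher. The median log2 fold change of the 31 was 0.07. An unadjusted p under 0.05 was found for 6 of the 31, against 2488 of 14226 over all tested genes. Serpina3g, an interferon-inducible protease inhibitor, had 397.9, 364.5, 366.5 and 378.4 CPM in MC38 replicates 1 to 4 and 178.5 and 166.9 CPM in controls. Each MC38 library was far above both controls, and the log2 fold change of 1.13 had an SE of 0.11. Serpina3g was called (edgeR adjusted p = 0.000946), and all 16 alternatives kept the call. B2m, the light chain of MHC class I, had 3038, 3310, 4329 and 4023 CPM in MC38 replicates 1 to 4 and 2614 and 2342 CPM in controls, higher in each MC38 library but not called (0.57, edgeR adjusted p = 0.102). H2-K1, a heavy chain of MHC class I whose reads may be shared with related genes, averaged 2253 CPM in MC38 and 2240 CPM in control libraries (0.01, edgeR adjusted p = 0.976). DESeq2 called 5 of the response genes, all higher: B2m, Ciita, Gbp4, Ly6a and Serpina3g. Over all genes DESeq2 called 634 of 15209 as higher. Every MC38 library lay above both controls for 6 of the 31 and below both for 2, against 14.0% and 15.0% of all tested genes. Named after their values were seen, Ly6a (log2 fold change 0.65, edgeR adjusted p = 0.0522), Ciita (1.85, 0.0984) and Gbp4 (1.14, 0.137) were among those above. In edgeR, Ly6a passed with library totals only, with both other filters on low counts, with the replicate block and without MC38 replicate 1. B2m passed without a filter on low counts and without MC38 replicate 1. The log2 fold change was below 0 for 12 of the 31. Psmb10, a subunit of the immunoproteasome chosen after its values were seen, had 145.1, 130.5, 105.7 and 121.0 CPM in MC38 replicates 1 to 4 and 207.2 and 155.5 CPM in controls. Every MC38 library lay below both controls, with a log2 fold change of -0.53 (edgeR adjusted p = 0.137). Psmb10 was called lower only with all 7 columns, a fit that counts the control column set aside above as a replicate. The other genes of antigen processing on the list, Psmb8, Psmb9, Tap1, Tap2 and Tapbp, had log2 fold changes between -0.33 and -0.13, with overlapping groups and no call.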

How the data were processed

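Polyadenylated RNA of sorted HSCs was sequenced after a low-input protocol with 12 PCR cycles, per the labels' protocols. The authors deposited raw read counts per Ensembl gene, and the tools named are HTSeq 0.10.0, STAR 2.6.1 and Trim Galore 0.5.0, with mm10, per the submitters' processing notes. The annotation release, strand setting and filters are not stated there, and no molecular identifiers are named, so PCR copies count as reads. GENCODE M21 (GRCm38, the assembly of mm10) named 27728 of 28786 genes and gave coordinates and exon lengths.

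The comparison of 4 MC38 with 2 control libraries used edgeR 4.0.16 under R 4.3.3 (TMM, filterByExpr, robust quasi-likelihood test, two-sided). The common biological coefficient of variation was 0.366. The SE is the log2 fold change over the root of F, and intervals use its t quantile. Alternatives used DESeq2 1.42.0, limma-voom (limma 3.58.1), other scaling and filters, all 7 columns, a replicate block and each library left out. The fit with all 7 columns treats control replicate 3 as a further replicate despite its closeness to the sum of the other controls. The edgeR script was tested on simulated data. Replicate numbers 1 and 2 occur in both groups, too few pairs to show that they mark shared batches, so the block is not in the design. With the block, MC38 replicates 3 and 4 do not bear on the group difference.

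Members and lists were chosen with earlier results of these data known. Genes named beyond the members were those called and the 2 most abundant of each pathway list, and the 5 nearest in pattern to each receptor chain (prior count 2), of which 1 for Ifngr2 is not reported here. Others are said to be chosen after their values were seen. Promoter sequences are from RefSeq (GRCm38.p6) and matched 8 of the 9 members, all but Ptpn2.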

Additional observations from a re-analysis of the deposited data

Results flagged for a closer look

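In MC38 replicate 2 Ifngr1 was at 144.5 CPM, far below the other MC38 libraries, which lay between 170.5 and 173.6 CPM. The gap to the nearest of them was 0.896 of the group's range, above Dixon's 95% critical value for 4 samples. In MC38 replicate 4 Socs1 was at 19.24 CPM, against 24.04 to 25.02 CPM in the others, a gap of 0.831 of the range, just past the same limit. The 9 genes were each examined this way, and chance alone flags about 1 in 20 groups.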

How the results depend on the processing

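Of 143 values of single members under the alternatives, 134 kept their direction and their side of the threshold. The 6 that ended a call were all of Ifngr1, whose log2 fold change was 0.65 with limma-voom, 0.66 without immunoglobulin and T cell receptor segments, and between 0.63 and 0.72 with a library left out. In limma-voom and without those segments 0 members were called, and between 0 and 1 with a library left out. The 3 reversed values were Irf1 without control replicate 2 (-0.060) or MC38 replicate 2 (-0.014) and Ptpn2 without control replicate 1 (0.11). With a library left out the Irf1 log2 fold change ran from -0.060 to 0.071, that of Ptpn2 from -0.53 to 0.11, and the log2 difference of the Ifngr1 to Ifngr2 ratio from -0.55 to 0.40. The number of genes called, 229, became 1028 with DESeq2, 504 without a filter on low counts, 368 with the stricter filter, 1454 with all 7 columns and 131 without immunoglobulin and T cell receptor segments, and ran from 60 to 442 with a library left out. With the replicate block 459 genes were called and Ifngr1 kept its call (log2 fold change 0.59, edgeR adjusted p = 0.0285), with no other member called. The log2 fold change with the block was 0.11 for Ifng, 0.094 for Irf2 and -0.63 for Ptpn2, each over 1.5 times from the value without it, as were those of Jak2 (0.034) and Irf1 (0.031). In CPM, MC38 replicates 3 and 4 lay above MC38 replicates 1 and 2 for Ifng, Irf2 and Ptpn2. For Irf1 they lay below both, and for Jak2 MC38 replicate 4 lay below MC38 replicate 1. Deviations of same-numbered libraries correlated at 0.079 for replicate 1 and -0.076 for replicate 2. With 2 controls the deviations of the second mirror those of the first, so these values are not separate checks of pairing. MC38 replicate 2 correlated at 0.076 with control replicate 1. Within pairs 1 and 2 the log2 difference was -0.15 for the Ifngr1 to Ifngr2 ratio, 0.12 for Jak1 to Jak2 and -0.063 for Irf1 to Irf2. Fits with 1 control assume that it varies like the MC38 libraries. Ifng did not pass the stricter filter and has no value there. Beyond the change in the libraries used, the causes of these shifts were not tested. With 2 control libraries the permutation tests cannot go below 0.0667, and Ifng rests on at most 113 counts per library.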
